A study of Bos taurus with 8 samples.

Results

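The circadian clock genes of bovine oocytes were compared between summer and winter. Of 10 genes chosen by symbol as the core of the clock and its first output, 9 were in the table of 26804 genes (CLOCK, ARNTL, PER1, PER2, CRY1, CRY2, NR1D1, NR1D2 and DBP), each with a single entry. PER3 was not analysed here. The summer group held 4 libraries (A, B, C and E) and the winter group 4 (A, B, D and E), all from denuded germinal vesicle oocytes of the same herd of multiparous dry beef cows kept outdoors, with no allele or drug differing between the groups. Before each collection the cows of both groups received a progesterone device, a gonadotropin-releasing hormone analog and follicle-stimulating hormone, and oocytes were aspirated in the morning. Each library held the mixed RNA of a pair of cows, and a p-value therefore speaks of the variation among pools. The same cows were collected from in both seasons, but which cows made up which library is not given in the sources used here, and the seasons were compared without pairing. The paper speaks of corresponding replicates between the seasons without naming them, so the unpaired test may leave out a pairing. Each season was a single collection, so season, day length, air temperature, collection session and handling cannot be told apart. No daily rhythm can be read from a single time of day. The paper also reports a higher rectal temperature and a lower proportion of best-grade oocytes in summer. According to the paper, the lower grades were discarded and only the upper grades were kept for sequencing. The mix of the kept grades within each library is not given, so this mix cannot be told apart from season either.

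The clock is a loop of transcription factors. CLOCK and ARNTL (also called BMAL1) bind together to E-box sequences and switch on the PER and CRY genes, whose proteins return to the nucleus and inhibit the pair. The same pair drives NR1D1 and NR1D2 (REV-ERB alpha and beta), nuclear receptors that repress ARNTL, and DBP, an activator of genes that carry a D-box. In somatic tissues of mammals this loop cycles daily, and it runs in granulosa cells of the rat ovary.

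ARNTL and PER1 made up a larger share of the transcripts in summer oocytes, and NR1D2 a smaller one. ARNTL was 2.14 times as abundant in summer by its mean level, PER1 1.71 times and NR1D2 0.510 times. The other 6 genes did not pass the test. With the library letter as a block, which assumes that a letter marks the same cows in both seasons, none of these calls held. Levels are given in TPM (transcripts in every 1000000, a share of the library corrected for transcript length, so that genes can be compared with each other). Each difference is the summer mean less the winter mean of log2(TPM + 1), given with its SE. This scale makes changes of weakly expressed genes look smaller than they are. The values come from a limma fit to all 13379 expressed genes with Benjamini-Hochberg adjustment.

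All 9 genes passed the filter on low values in both seasons. Their means over the 8 libraries lay between 4.98 TPM (CLOCK) and 131 TPM (PER1), and single libraries between 2.45 and 182 TPM. In summer the order of the means was PER1, ARNTL, CRY1, NR1D1, PER2, DBP, CRY2, NR1D2 and CLOCK. Neighbours from CRY1 to CRY2 overlapped in their ranges, as did NR1D2 and CLOCK. In winter the order was PER1, ARNTL, DBP, CRY1, NR1D2, CRY2, NR1D1, PER2 and CLOCK, where each neighbour from ARNTL to PER2 overlapped the next. PER1 stood above the rest and CLOCK at the bottom in both seasons.

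**Figure D1:**
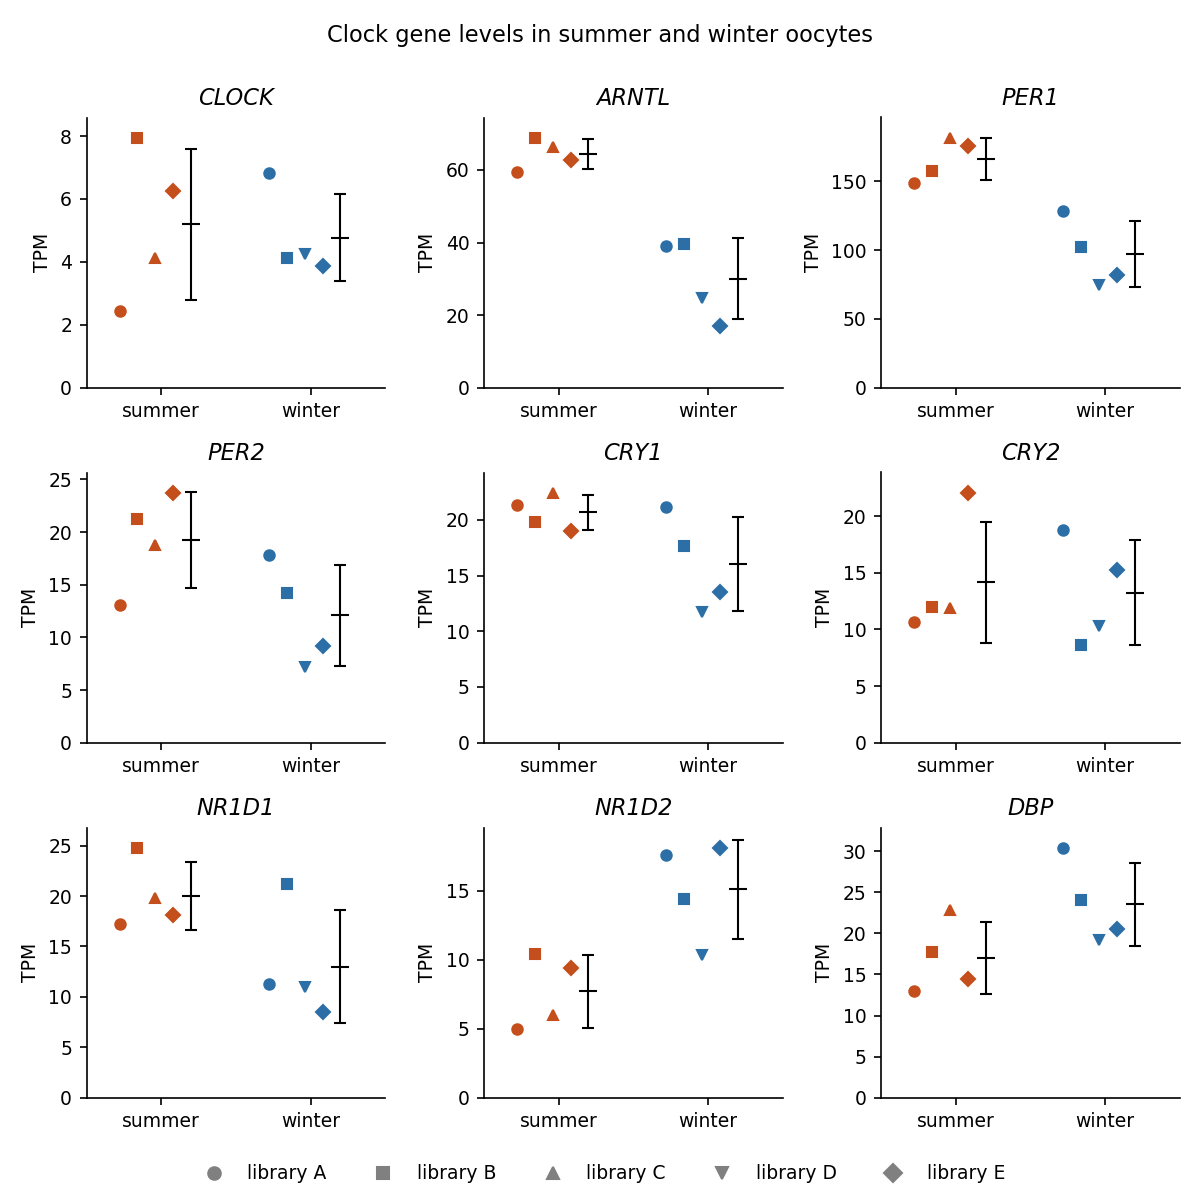
TPM of each clock gene (vertical axis, starting at 0) in the 4 summer libraries (orange, left) and the 4 winter libraries (blue, right) of each panel, with marker shapes for library letters and the black bar giving mean ± SD. ARNTL and PER1 are the panels without overlap between the seasons.

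Of the activators, ARNTL (ENSBTAG00000013029) was measured at 59.3, 68.9, 66.4 and 62.8 TPM in summer A, B, C and E, against 39.1, 39.7, 24.6 and 16.9 TPM in winter A, B, D and E. Every summer library lay above every winter library, and the winter libraries were the more spread (64.4 ± 4.18 against 30.1 ± 11.2 TPM, SD, n = 4 each). The difference was 1.15 (SE 0.25, adjusted p = 0.0103, limma). Without each library in turn it ran from 0.91 to 1.31 with an adjusted p of at most 0.0338 (limma), and without winter E alone it fell short of a 2-fold change. A two-sided exact permutation test over the libraries gave p = 0.0286, the smallest that 4 against 4 allows.

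CLOCK (ENSBTAG00000044044), the partner of ARNTL, had 2.45, 7.95, 4.12 and 6.25 TPM in summer and 6.81, 4.13, 4.26 and 3.88 TPM in winter. The seasons overlapped, with the lowest and the highest library both from summer, and the difference of 0.04 had a 95% interval from -0.70 to 0.77 (adjusted p = 0.940, limma). Its paralog NPAS2, which can pair with ARNTL in place of CLOCK, was far more abundant in the same oocytes, with 248 ± 26.4 TPM in the summer pools and 266 ± 34.8 TPM in the winter pools (SD, n = 4 each; difference -0.10, 95% interval -0.40 to 0.20). The ratio of NPAS2 to CLOCK, a pair chosen after the values were seen, was 30.6 to 115 in summer libraries and 34.3 to 81.0 in winter libraries. ARNTL2, the paralog of ARNTL, did not pass the filter, with means of 0.254 TPM in summer and 0.731 TPM in winter.

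Of the repressors, PER1 (ENSBTAG00000003889) had 149, 158, 182 and 176 TPM in summer A, B, C and E, against 128, 102, 74.5 and 82.1 TPM in winter A, B, D and E. No winter library reached the lowest summer library (166 ± 15.3 against 96.9 ± 24.1 TPM, SD, n = 4 each). The difference was 0.80 (SE 0.17, adjusted p = 0.0105, limma), below a 2-fold change, and it stayed between 0.68 and 0.94 without each library in turn (adjusted p at most 0.0331). The exact permutation p was again the smallest possible.

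PER2 (ENSBTAG00000001879) had 13.1, 21.3, 18.8 and 23.8 TPM in summer and 17.8, 14.2, 7.21 and 9.15 TPM in winter. Winter A and B overlapped the summer libraries, and the difference of 0.67 (95% interval 0.02 to 1.32) did not pass (adjusted p = 0.109, limma). Without winter A it was 0.87 and passed narrowly (adjusted p = 0.0498, limma). Without any other single library it did not pass (adjusted p from 0.0611 to 0.261, limma), and it was lowest, at 0.47, without winter D.

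CRY1 (ENSBTAG00000010149) had 21.4, 19.8, 22.5 and 19.0 TPM in summer against 21.2, 17.6, 11.8 and 13.5 TPM in winter, with winter A inside the summer range (difference 0.38, 95% interval -0.08 to 0.84, adjusted p = 0.194, limma). CRY2 (ENSBTAG00000021223) had 10.7, 12.0, 11.9 and 22.1 TPM in summer and 18.8, 8.59, 10.3 and 15.3 TPM in winter. Summer E and winter A were its high libraries, and its difference of 0.09 had an interval from -0.57 to 0.75 (adjusted p = 0.833, limma).

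Of the nuclear receptor genes, NR1D2 (ENSBTAG00000018024) was the clock gene that fell, with 4.97, 10.4, 6.0 and 9.4 TPM in summer against 17.6, 14.4, 10.3 and 18.1 TPM in winter (7.70 ± 2.62 against 15.1 ± 3.58 TPM, SD, n = 4 each). Summer B lay just above winter D, and all other winter libraries lay above all summer libraries. The difference was -0.91 (SE 0.28, adjusted p = 0.0357, limma), with an exact permutation p of 0.0571. The call was lost without summer A, summer C, winter A, winter B or winter E (differences from -0.92 to -0.75, adjusted p from 0.0560 to 0.0954, limma), and held without summer B, summer E or winter D.

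NR1D1 (ENSBTAG00000012178) had 17.3, 24.8, 19.8 and 18.1 TPM in summer and 11.2, 21.2, 11.0 and 8.54 TPM in winter. Winter B reached the summer range while the other winter libraries stayed below it. The difference of 0.65 (95% interval 0.06 to 1.24) did not pass (adjusted p = 0.0926, limma), and without winter B it was 0.90 and passed (adjusted p = 0.0160, limma). Without any other single library it did not pass (adjusted p from 0.0944 to 0.222, limma), and it was lowest, at 0.49, without winter E. DBP (ENSBTAG00000006754) had 12.9, 17.8, 22.9 and 14.4 TPM in summer and 30.5, 24.0, 19.2 and 20.5 TPM in winter. Summer C lay inside the winter range, and the difference was -0.46 (95% interval -0.95 to 0.04, adjusted p = 0.150, limma).

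The counts over the 9 genes are given beside the share of all tested genes, and 9 genes are too few for a comparison of rates. At an adjusted p under 0.05, 2 were higher in summer, where 14.9% of all tested genes were, and 1 was lower, where 11.9% were. With a 2-fold change as a further limit, 1 was higher (ARNTL; background 4.4%) and 0 were lower (background 5.17%). At an unadjusted p under 0.05 (limma), 4 were higher (background 21.9%) and 1 was lower (background 19.7%). The seasons did not overlap with summer above winter for 2 genes (background 15.4%) and with summer below winter for 0 (background 14.1%). The median difference was 0.38 over the 9 genes and -0.03 over all tested genes. A positive difference was found for 7 of the 9 genes and for 6470 of all 13379 tested genes.

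**Figure D2:**
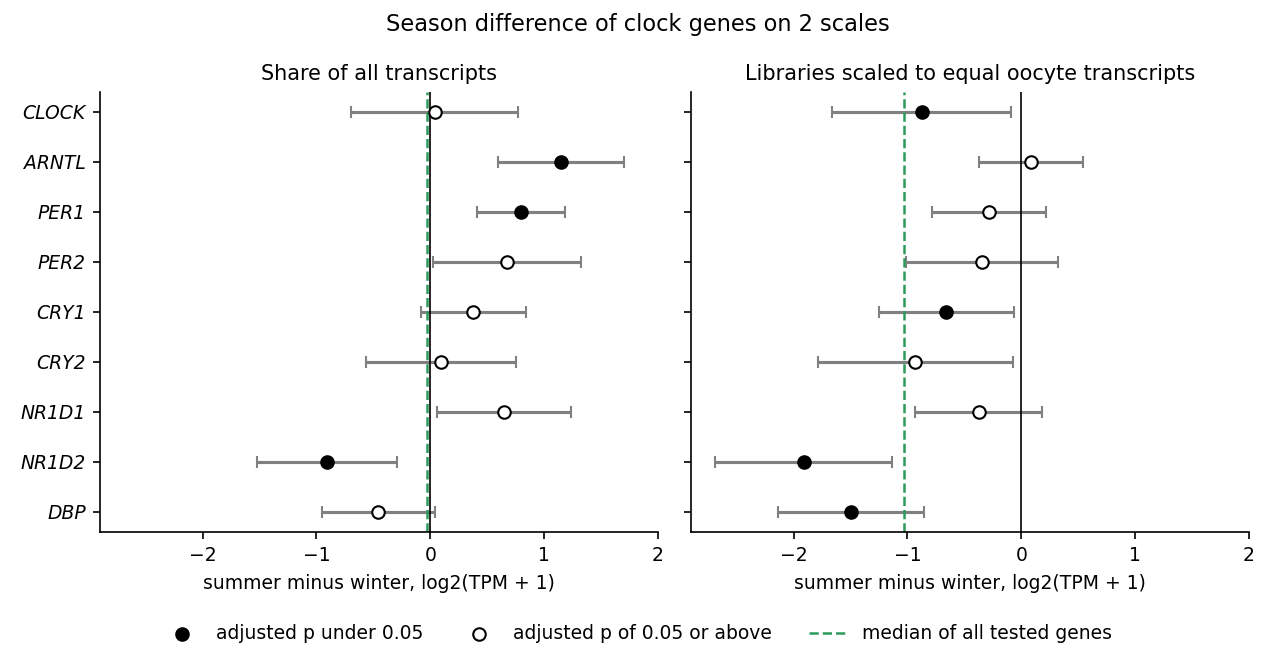
Summer less winter difference in log2(TPM + 1) for each clock gene, with 95% intervals from limma, filled where the adjusted p was under 0.05; left, from TPM as deposited, right, after scaling every library to equal oocyte marker transcripts. The dashed line is the median of all tested genes, at -0.03 on the left and -1.03 on the right, and ARNTL stands at 1.15 on the left and 0.09 on the right.

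The share of transcripts that came from oocyte marker genes also differed between the seasons. Of 32 oocyte markers tested, 28 were higher in summer and 0 lower (limma, adjusted p under 0.05), and together they held 2.50 to 2.91% of TPM in summer and 0.836 to 1.86% in winter. GDF9, a growth factor of the oocyte, averaged 1039.6 ± 137 TPM in summer pools and 499 ± 181 TPM in winter pools (SD, n = 4 each). In winter libraries the order of ARNTL followed this share, from winter B and A with the highest to D and E with the lowest, and in summer libraries it did not. Fewer cells of a type and less RNA per cell cannot be told apart in pooled samples.

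Relative to oocyte markers ARNTL was about level between the seasons. NR1D2, DBP, CRY1 and CLOCK were lower in summer, as were 9016 of all 13379 tested genes (limma, adjusted p under 0.05). Per 1000 TPM of the oocyte list, ARNTL had 2.21, 2.37, 2.65 and 2.25 TPM in summer A, B, C and E and 2.78, 2.14, 2.04 and 2.02 TPM in winter A, B, D and E. After all libraries were scaled to equal oocyte list TPM, its difference was 0.09 (95% interval -0.37 to 0.54, adjusted p = 0.727, limma). This scaling put the median of all tested genes at -1.03, where it had been -0.03, so that 16 genes were higher and 9016 lower across the table, against 1995 and 1594 without it. Against the shifted median, ARNTL stood 1.12 above it.

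NR1D2 per 1000 TPM of the oocyte list was 0.185, 0.358, 0.240 and 0.337 in summer and 1.25, 0.773, 0.856 and 2.17 in winter, with no overlap (difference after scaling -1.91, adjusted p = 0.00110, limma). DBP was 0.482, 0.612, 0.914 and 0.516 in summer and 2.17, 1.29, 1.59 and 2.45 in winter, also without overlap (difference -1.50, adjusted p = 0.00140, limma). CRY1 did not overlap either, at 0.680 to 0.897 in summer and 0.949 to 1.62 in winter (difference -0.66, adjusted p = 0.0479, limma). The share of all tested genes without overlap on this scale was not computed here. CLOCK passed as well (difference -0.87, adjusted p = 0.0476, limma), although its seasons overlapped. Relative to the shifted median of all genes these differences were -0.88 for NR1D2, -0.47 for DBP, 0.37 for CRY1 and 0.16 for CLOCK. PER1 (-0.29), PER2 (-0.35), NR1D1 (-0.37) and CRY2 (-0.93) turned negative on this scale without passing the test (adjusted p = 0.285, 0.327, 0.210 and 0.0518, limma), and lay 0.74, 0.68, 0.66 and 0.10 above the shifted median.

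**Figure D3:**
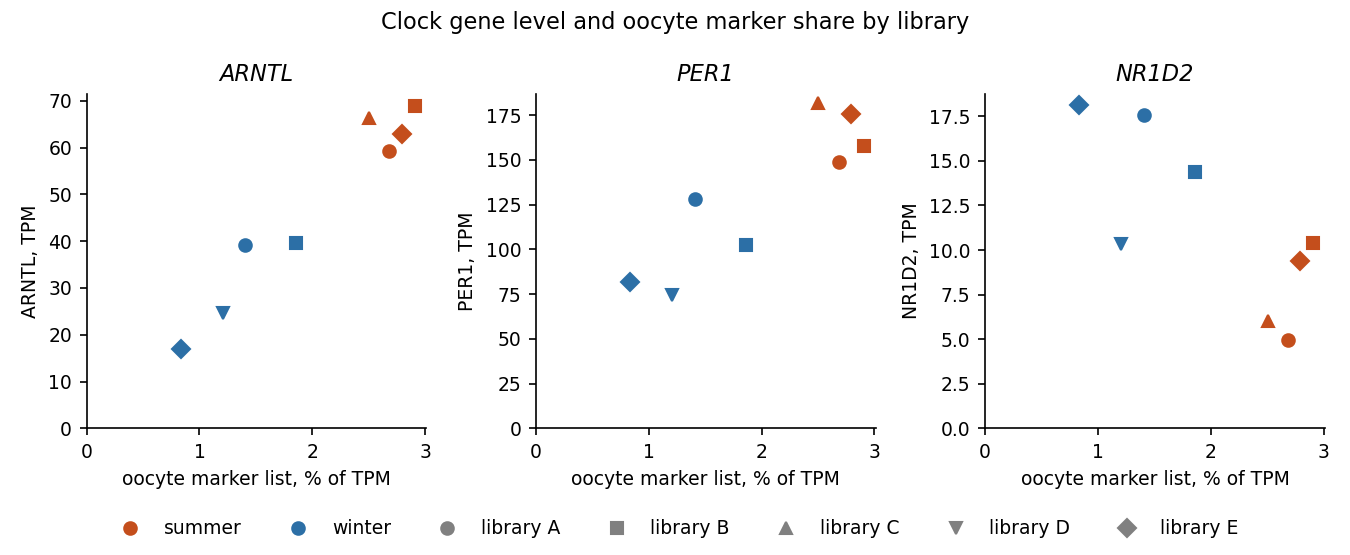
TPM of ARNTL, PER1 and NR1D2 (vertical axes) against the share of TPM held by the oocyte marker list (horizontal axes, %) in each library, summer in orange and winter in blue. Winter E, with the lowest oocyte share at 0.836%, has the lowest ARNTL (16.9 TPM) and the highest NR1D2 (18.1 TPM). Among the winter libraries NR1D2 does not follow the share, with 17.6 TPM in winter A (1.41%) and 10.3 TPM in winter D (1.21%).

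Markers of other cells were also present, and in winter D and E the cumulus and granulosa list held more of the TPM than the oocyte list (1.26 and 4.01% against 1.21 and 0.836%). The lists differ in size and in the abundance of their genes, so these sums do not compare amounts of cells. INHA alone had 17265 TPM in winter E. The cumulus and granulosa list held 0.958 to 1.32% of TPM in summer and 1.09 to 4.01% in winter (0 higher and 2 lower in summer of 23 tested), and without winter E its winter maximum was 1.26%. Theca and stroma markers held 0.0214 to 0.0310% in summer and 0.0604 to 0.246% in winter (9 of 13 tested lower). Leukocyte markers held 0.00564 to 0.0123% and 0.00261 to 0.0677%, endothelial markers 0.00308 to 0.00492% and 0.00221 to 0.00455%, erythrocyte list genes 0.0710 to 0.282% and 0.0534 to 0.385%, and epithelial markers 0.0199 to 0.0660% and 0.0354 to 0.373%, in summer and in winter. The endothelial gene PECAM1 and the globin gene HBB were at 0 in all summer libraries and also in winter D. Their highest winter values were 0.457 and 2.01 TPM. The leukocyte gene PTPRC was 0 to 0.0906 TPM in summer and 0.116 to 1.05 TPM in winter. PECAM1, HBB and PTPRC did not pass the filter on low values. With the cumulus and granulosa level as a covariate the NR1D2 difference was -0.83 and no longer passed (adjusted p = 0.105, limma). Without the covariate it was -0.91, and its SE rose from 0.28 to 0.32 with it. ARNTL (0.86, adjusted p = 0.0211) and PER1 (0.73, adjusted p = 0.0334, limma) still passed with the covariate. Over all tested genes the covariate left 1029 higher and 1024 lower, against 1995 and 1594 without it. Winter E stood apart from all other libraries in this covariate. The part of theca, stroma and leukocyte transcripts in the clock gene differences was not tested.

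Ratios within a library do not depend on its scaling, but they can still move with its mix of cells, which was not tested. The ratio of ARNTL to NR1D2, the receptor that represses it, was 6.63 to 11.9 in summer libraries and 0.931 to 2.76 in winter libraries, without overlap. It sets a gene called higher over a gene called lower in the same libraries, so it restates those calls. On the log2 scale the ratio was 3.58, 2.73, 3.47 and 2.74 in summer A, B, C and E and 1.16, 1.47, 1.25 and -0.10 in winter A, B, D and E. The ratio of NR1D1 to NR1D2 also separated the seasons, at 1.93 to 3.47 in summer libraries and 0.471 to 1.48 in winter libraries. It too has NR1D2, called lower, below the line, so it restates that call in part. How many gene pairs separate the seasons in this way was not computed here. NR1D1 was the higher of the pair in every summer library and in winter B and D.

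The other ratios overlapped between the seasons. ARNTL was 8.67 to 24.3 times CLOCK in summer and 4.35 to 9.62 times in winter, where only summer B lay inside the winter range. ARNTL to NR1D1 was 2.78 to 3.46 in summer and 1.87 to 3.48 in winter. PER1 was 7.40 to 11.4 times PER2 in summer and 7.21 to 10.3 times in winter, and CRY1 to CRY2 was 0.860 to 2.0 in summer and 0.887 to 2.05 in winter. These ratios are descriptions without a test.

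**Figure D4:**
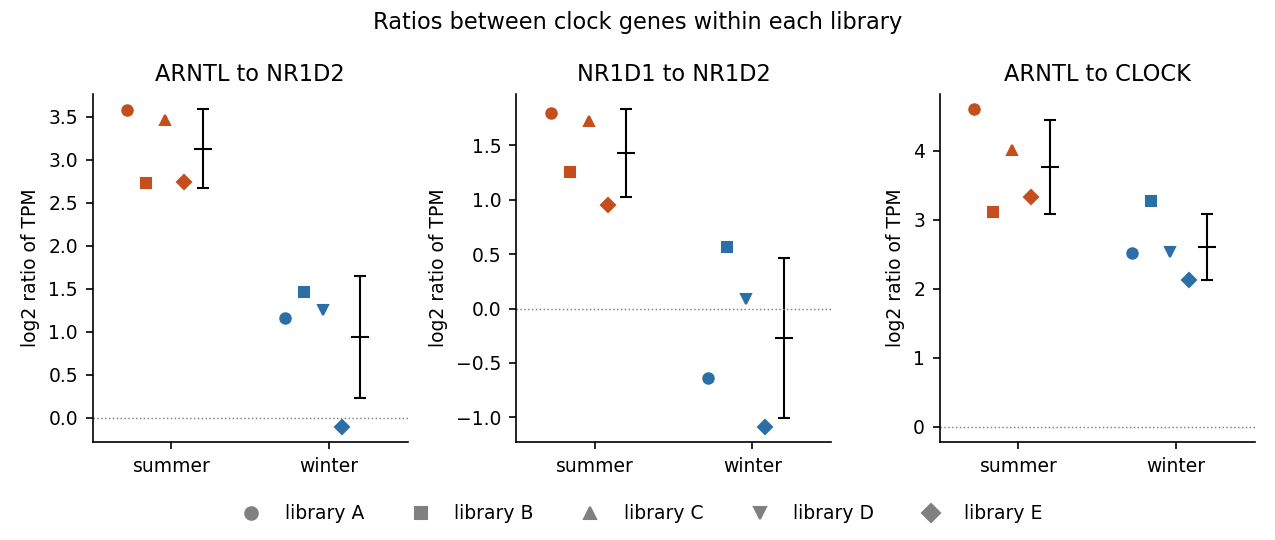
Log2 ratio of TPM between clock genes in each library, summer (orange, left) and winter (blue, right), with mean ± SD in black and the dotted line at equal levels. ARNTL to NR1D2 and NR1D1 to NR1D2 separate the seasons, and ARNTL to CLOCK overlaps in summer B.

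Genes that act around the loop were called in both directions. Of 42 further clock genes listed, 40 were in the table (NFIL3 and PASD1 were not analysed here) and 37 passed the filter, of which 7 were higher (background 14.9%) and 6 lower (background 11.9%) in summer and 24 did not pass (limma, adjusted p under 0.05), with a median difference of -0.06, against -0.03 over all tested genes. In all, 13 of the 37 were called, against 3589 of all 13379 tested genes, and these rates were not compared by a test. CIART, WDR5 and TSPO passed whichever library was removed. The other 10 lost their calls when 1 of 2 to 7 particular libraries was removed (highest adjusted p = 0.128, limma).

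The largest difference among the 7 that rose belonged to CIART, a repressor that binds the CLOCK and ARNTL complex. It had 263, 354, 286 and 307 TPM in summer and 158, 199, 127 and 98.6 TPM in winter, without overlap (difference 1.09, SE 0.20, adjusted p = 0.00680, limma). Without winter E the difference was 0.92. The other repressors of E-box genes, BHLHE40 and BHLHE41, did not pass. BHLHE40, named after its values were seen, ranged from 24.1 to 433 TPM in summer, highest in summer A, and from 87.6 to 233 TPM in winter.

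Among D-box factors HLF, a relative of DBP, rose (36.7 ± 8.58 against 20.7 ± 7.02 TPM, SD, n = 4 each; difference 0.82, adjusted p = 0.0337, limma), with winter B above summer A as the sole overlap. TEF, the third relative, differed by -0.52 (adjusted p = 0.104, limma) and was named after its value was seen. RORA, a receptor that activates ARNTL through the element that NR1D1 and NR1D2 use, had 10.1 to 12.4 TPM in summer and 5.79 to 9.99 TPM in winter (difference 0.43, adjusted p = 0.187, limma).

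Of 8 kinase genes, CSNK1A1 of the casein kinase family fell (88.1 ± 6.53 against 126 ± 26.2 TPM, adjusted p = 0.0382, limma) and CSNK2B, the regulatory subunit of casein kinase II, rose (398 ± 34.4 against 299.9 ± 47.3 TPM, adjusted p = 0.0493, limma). BTRC, a ubiquitin ligase subunit that marks PER proteins for degradation, rose (152 ± 25.0 against 87.5 ± 27.0 TPM, difference 0.82, adjusted p = 0.0182, limma), as did USP2, a ubiquitin protease (difference 0.77). DDB1, a ligase subunit, averaged 132 ± 22.6 TPM in summer pools and 141 ± 8.87 TPM in winter pools (adjusted p = 0.599, limma).

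Cofactors split. WDR5, a subunit of histone methyltransferase complexes, rose (249.9 ± 26.4 against 125 ± 35.1 TPM, difference 1.02, adjusted p = 0.00580, limma), and TIPIN, the partner of TIMELESS, rose by 0.67 (adjusted p = 0.0288, limma). Without winter E the WDR5 difference was 0.93. The RNA-binding proteins NONO (-0.53) and SFPQ (-0.94) and the deacetylase HDAC3 (-0.48), which acts with NR1D1, fell (adjusted p = 0.0265, 0.0213 and 0.0292, limma). The scaffold gene RACK1 was the most abundant gene of the list, with 1518 ± 151 TPM in summer pools and 1646 ± 183 TPM in winter pools.

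Of the output genes, TSPO, a protein of the outer mitochondrial membrane, had 73.8, 33.0, 37.2 and 42.5 TPM in summer and 126, 198, 223 and 112 TPM in winter (difference -1.81, SE 0.28, adjusted p = 0.00473, limma). WEE1, a kinase that holds back entry into mitosis, had 13.2 ± 2.96 TPM in summer and 22.9 ± 3.77 TPM in winter (difference -0.76, adjusted p = 0.0255, limma). Relative to oocyte markers CIART differed by 0.00 and WDR5 by -0.06, and TSPO by -2.89 (adjusted p = 0.995, 0.782 and 4.98e-05, limma), where the median of all tested genes stood at -1.03.

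**Figure D5:**
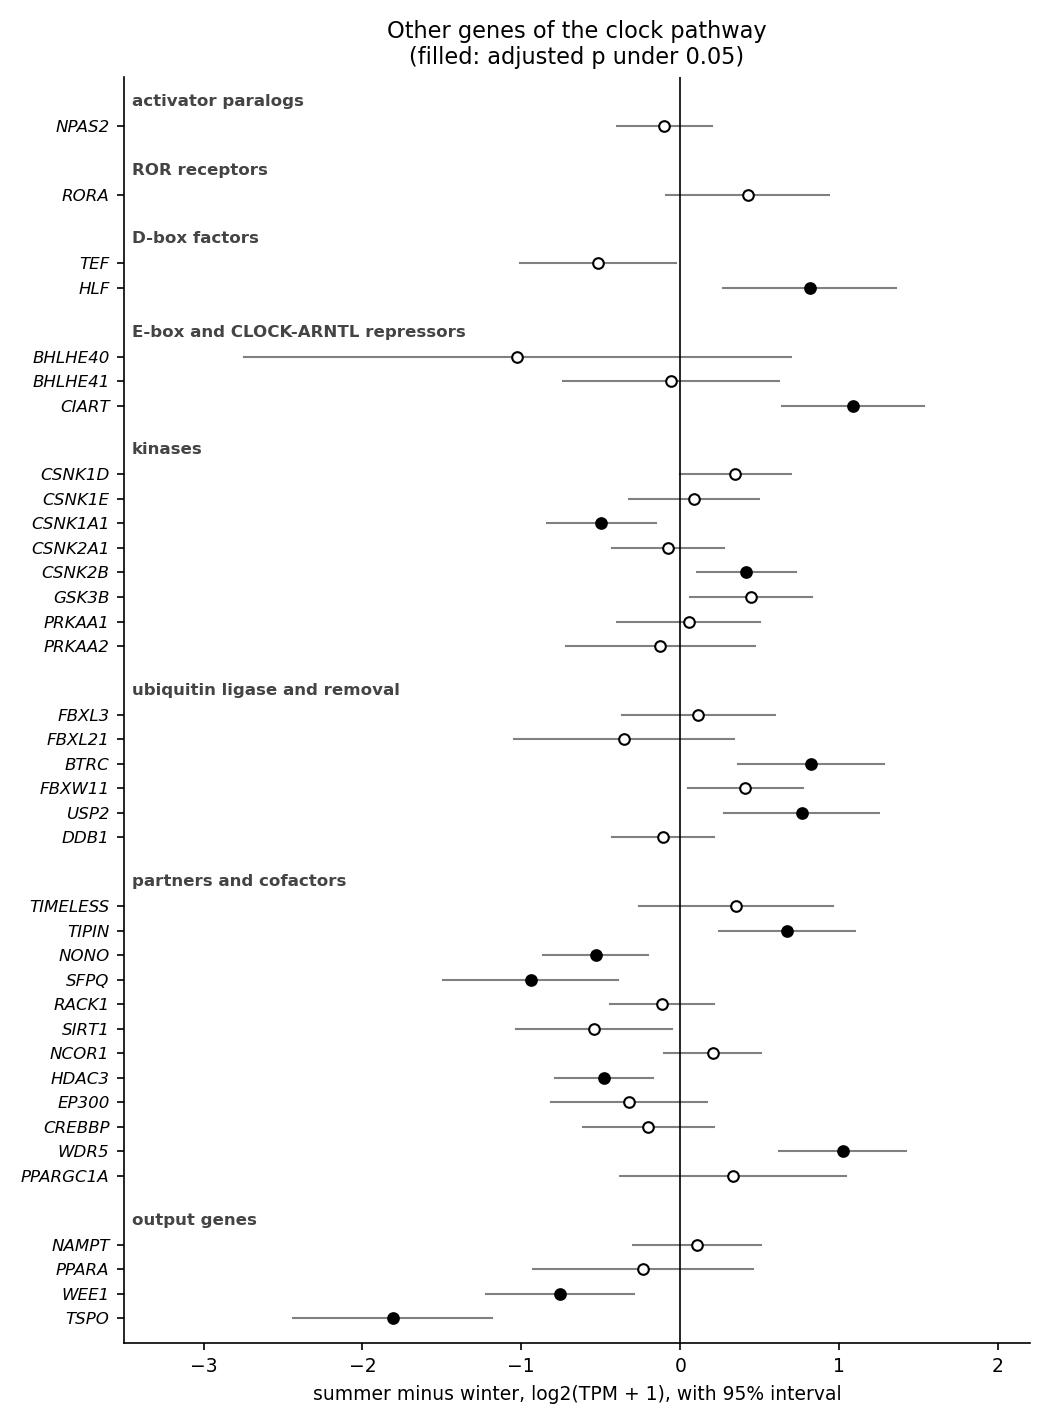
Summer less winter difference in log2(TPM + 1) with 95% intervals for the 37 tested genes of the wider clock list, grouped by role, filled where the adjusted p was under 0.05. CIART (1.09) and WDR5 (1.02) lie farthest to the right among called genes and TSPO (-1.81) farthest to the left.

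The genes with the pattern most like each called clock gene were taken by Pearson correlation of log2(TPM + 1) over the 8 libraries, among 9244 other named genes averaging 10 TPM or more. They were TRIM77, CSTF3 and SPAG17 for ARNTL (r = 0.998, 0.995 and 0.994), LINS1, TTC5 and SPTB for PER1 (0.985, 0.981 and 0.980), and TAPBPL, B9D2 and AGAP1 for NR1D2 (0.982, 0.973 and 0.966). The season difference itself enters these values, which describe likeness only.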

How the data were processed

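Polyadenylated RNA of pooled oocytes was sequenced as paired reads. The authors trimmed the reads, mapped them to the bovine genome and deposited TPM values per gene; CLC Genomics Workbench is the tool in the methods of the study, whereas Bowtie2 2.2.2, bcl2fastq, DESeq2 and the build ARS-UCD1.2 stand in the submitters' processing notes, and which of these made the table was not settled. Each library sums to 1000000 TPM, so the depth of each library and its counting precision cannot be read from the values. Between 14477 and 16448 genes were above 0 per library. Groups came from the sample titles. No annotation of that build was used, so no coordinates are printed; promoter motifs were planned and not analysed here.

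Genes with zFPKM above -3 in all 4 libraries of at least 1 season entered a limma fit (limma 3.58.1, R 4.3.3, trend, season only) on log2(TPM + 1), with Benjamini-Hochberg adjustment over 13379 genes. The study's negative binomial model needs counts. The test was first run on simulated data. Reads of paralogs or of overlapping or antisense genes may be shared. The members, lists and tests were chosen with earlier results of these data known. All clock genes were named, together with called genes and the most abundant gene in each role of the wider list; 3 like genes per called member had at least 10 TPM. Marker lists of 7 cell types were summed. Alternatives were another pseudocount, filters, scalings, a covariate, moderation without trend, array weights, a block for the letters and removal of each library.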

Additional observations from a re-analysis of the deposited data

Results flagged for a closer look

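In 6 of 82 groups of 4 libraries examined, 1 library lay farther from the rest than Dixon's limit allows, which chance does in about 1 of 20 groups. CLOCK was 6.81 TPM in winter A, CRY2 was 22.1 TPM in summer E, and WDR5 was 177 TPM in winter B. The cumulus and granulosa list held 4.01% of TPM in winter E, and the leukocyte list 0.0123% in summer A. The log2 ratio of ARNTL to NR1D1 was 1.47 in summer B, below the other summer libraries.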

How the results depend on the processing

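NR1D2, DBP and TSPO were lower in summer under all 19 alternatives, and so were CSNK1A1, HDAC3, NONO, SFPQ, WEE1, NPAS2 and RACK1. NPAS2 and RACK1 had not passed in the main fit (adjusted p = 0.599 and 0.575, limma), so a constant sign alone does not mark a call. NR1D2 lost its call under 10 of the 19, and DBP had none in the main fit. ARNTL and CIART were higher under all but equal oocyte transcripts, where they lay within their error of 0 (0.09 ± 0.21 and 0.0014 ± 0.18, SE). Clock genes higher at an adjusted p under 0.05 numbered 2. They were 4 with quantile normalization or array weights and 0 with equal oocyte transcripts or the block. Over all 13379 tested genes, 1995 were higher in the main fit. The all-gene count was 2336 with quantile normalization, 3022 with array weights, 16 with equal oocyte transcripts, 1029 with the covariate and 199 with the block. Lower, there was 1 clock gene. There were 4 with equal oocyte transcripts and 0 with no filter, the granulosa covariate, array weights or the block. There were also 0 with both letter A libraries left out (chosen after seeing the data), and 0 to 1 without each library. Over all tested genes, 1594 were lower in the main fit and 9016 with equal oocyte transcripts. The all-gene count was 1267 of 18555 with no filter, 1024 with the covariate, 2345 with array weights and 313 with the block. Without letter A it was 1509 of 13614. At 2-fold, 1 clock gene was higher. That count was 0 with equal oocyte transcripts, the covariate or the block, 2 without letter A, and 0 to 1 without each library. Lower at 2-fold there were 0, against 2 with equal oocyte transcripts and 0 to 1 without each library. Counts over all genes at 2-fold were not made for these alternatives. Of the wider list 7 were higher: 0 with equal oocyte transcripts, 2 with the covariate, 11 with array weights, 2 with the block and 2 to 7 without each library. Lower were 6: 28, 2 and 1 with oocyte scaling, covariate and block, 3 without letter A, and 1 to 6 without each library. With equal oocyte transcripts, whose own construction moved all genes down, the sign turned for CLOCK (-0.87), PER1 (-0.29), PER2 (-0.35), CRY1 (-0.66), CRY2 (-0.93), NR1D1 (-0.37), RORA (-0.56), HLF (-0.24), CSNK2B (-0.67), BTRC (-0.26), USP2 (-0.31), TIPIN (-0.40) and WDR5 (-0.065). CLOCK was -0.066 with the covariate and -0.17 to 0.29 without each library, CRY2 -0.13 to 0.27, and DDB1 -0.17 to 0.015 (0.014 without letter A). For the other settings the cause was not tested.

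The sources used here do not say that a letter marks the same cows in both seasons, and the libraries were not treated as pairs: deviations of same-lettered libraries correlated by 0.05 for A, 0.14 for B and 0.20 for E, and each of these libraries correlated best with its own letter, a hint of pairing from the data alone. With the letter as a replicate block ARNTL differed by 1.07 (adjusted p = 0.0613), PER1 by 0.64 (0.112) and NR1D2 by -0.98 (0.109, limma), with 199 genes higher and 313 lower in all.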

Other observations

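The ratio of CIART to ARNTL, chosen after the values were seen, varied little within or between the seasons: it was 4.31 to 5.14 in summer libraries and 4.04 to 5.85 in winter libraries, with log2 means of 2.23 ± 0.12 and 2.31 ± 0.22 (SD, n = 4 each, no test).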
